A study of Danio rerio with 8 samples.

Results

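The genes described here are 9 regulators of the anterior nervous system and the neural plate: rx3, otx2b, otx1, six3a, six3b, zic1, zic2a, zic2b and irx7. They were found on the array by gene symbol or synonym, which gave 12 probe sets of the 15502 that are not array controls. The genes otx1, zic2a and zic2b have 2 probe sets each, numbered here by mean signal. Of the 12, 7 probe sets from 6 genes were bright enough to be tested. The other 5 left otx2b, six3a and six3b with no tested probe set.

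All embryos were zebrafish at 6 hours post fertilization, the age at which undisturbed embryos begin gastrulation. Whether the groups had reached the same stage was not tested. Each embryo had been injected at 1 or 2 cells with a morpholino (3 nl at 0.3 mM), an antisense oligomer that blocks a chosen RNA. Control embryos received a control morpholino (cMO), and the others a morpholino (MO) against prmt6, which encodes an arginine methyltransferase of histones. Embryos given the MO had been sorted by shape into a normal, a mild and a severe subtype before RNA was taken from whole embryos. There were 3 control, 3 severe, 1 mild and 1 normal arrays. The severe subtype is therefore a selected part of the injected embryos, and the strain and the number of embryos per array are not given in the sources used here. Control and severe arrays were labelled biological replicates, without naming separate clutches, so the p-values cover only the spread among these arrays, which may be technical. The mild and the normal array have no replicate, and their tests assume that they vary as the replicated groups do.

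By the start of gastrulation the dorsal ectoderm of a fish embryo is being set apart as neural plate, and signals from the organizer and the margin give it an anterior to posterior order. Otx homeobox proteins mark the future forebrain and midbrain. Within that territory rx3 and six3 genes specify the eye field and the forebrain. Irx7 is an Iroquois homeobox protein of the future midbrain and hindbrain, and zic genes encode zinc finger proteins of the neural plate and its border.

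The members did not move together. In severe embryos rx3, irx7 and 1 probe set of otx1 rose, while 1 probe set each of zic2a and zic2b fell. In mild embryos rx3 and irx7 stood at severe levels, otx1 stood near control, and zic2a lay between. No member passed the test on the normal array. With limma at an adjusted p of 0.05 over all 9301 tested probe sets, 5 members passed in severe embryos, 3 higher and 2 lower. Over all tested probe sets 38.6% passed in that comparison, 21% higher and 17.6% lower, so calls are common among all genes in this comparison. Of the 7 tested members, rx3 and zic1 reached the brightness limit only through the MO arrays, where they were brighter than in controls, so no share is read from those 7. With the limit lifted, the same 5 of all 12 member probe sets passed, against 23.2% of all probe sets. The severe and control arrays then did not overlap for 7 of the 12, against 39.6% of all probe sets. Among these 7, zic1 and zic2b probe set 2 were near background. For zic2b probe set 2 the lowest control and the highest severe array both read 5.34. The median difference was 0.06 on the log2 scale over the 12 members and 0.06 over all probe sets. The split of calls rests on the scaling: with arrays scaled on 18 spiked-in hybridisation controls, 474 probe sets were higher and 1903 lower in severe embryos. That scaling moved the median of all tested probe sets to -0.17 in severe, -0.42 in mild and -0.37 in normal embryos (0.11, 0.03 and -0.03 as deposited), and median centring moved it to 0.24 in mild embryos. Of the 5 members called in severe embryos, none turned its sign under either scaling.

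**Figure D1:**
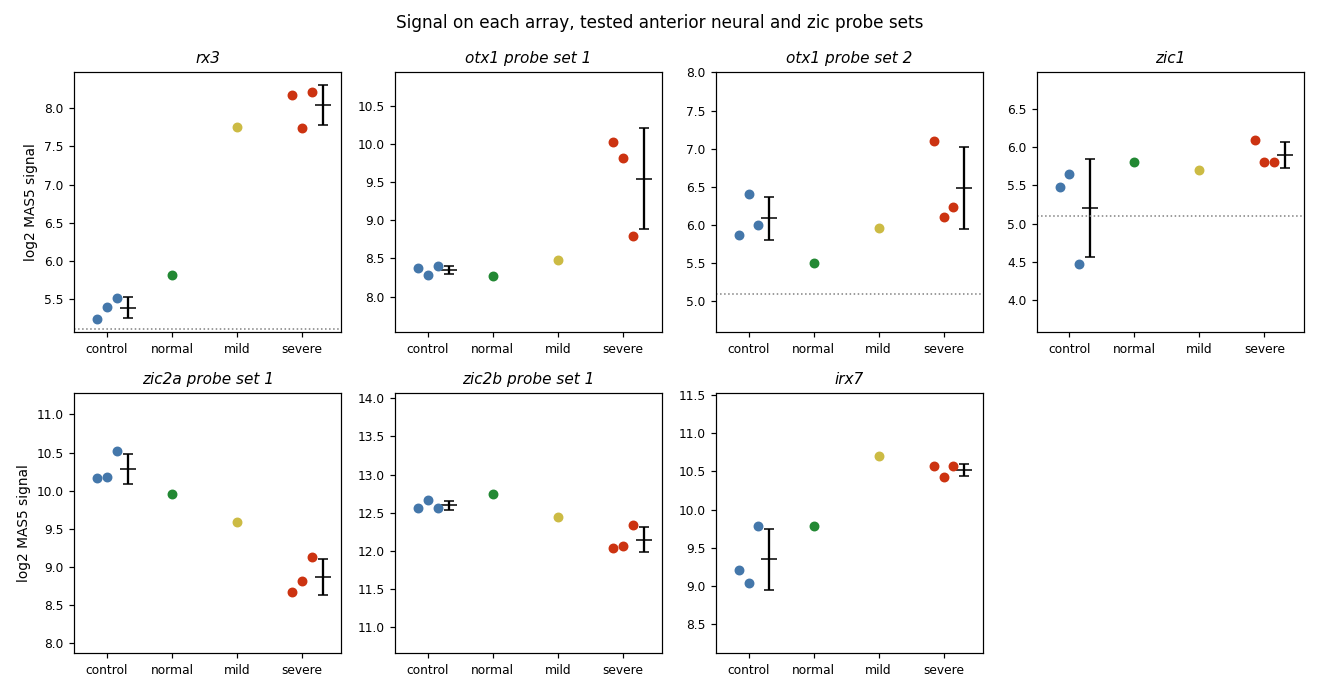
Each panel plots the log2 signal of 1 tested probe set on the 8 arrays, by group; short bars give the mean and SD of the 3 control and the 3 severe arrays, and the dotted line, where in range, is array background at log2 5.10. The severe and mild points lie above all controls for rx3 and irx7, while the severe points lie below all controls for zic2a and zic2b, probe set 1.

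Wide changes in the rest of the embryo went along with these values. Of 13 tested enveloping layer genes, which mark the outer epithelium, 11 fell in severe embryos. Their summed linear signal lay between 48938 and 67677 in controls and between 7313 and 14191 in severe embryos. Of 12 egg-supplied transcripts 11 rose, with sums between 20536 and 24641 in controls and between 45618 and 49348 in severe embryos. Of 11 tested mesendoderm genes 8 fell (sums 19492 to 23947 in controls, 5823 to 11295 in severe). Of 9 tested genes of ventral and non-neural ectoderm 6 fell and 1 rose (20023 to 26441 in controls, 7935 to 12281 in severe), and of 6 yolk syncytial layer genes 5 fell and 1 rose (6327 to 12037 in controls, 1417 to 2844 in severe). The sums take every listed gene on the array, tested or not. These were 12 genes for mesendoderm, 12 for ventral and non-neural ectoderm and 8 for the yolk syncytial layer. Over all tested probe sets 21% rose and 17.6% fell in severe embryos. Some markers had a group mean under the brightness limit and were tested only through other arrays. This held for the control mean of tbpl2 (4.99). In the enveloping layer it held for the severe means of anxa1b (3.83), anxa1c (3.70), krt17 (3.35), pkp3a (5.23) and krt97 (5.44). The severe means of eve1 (4.76), apoc2 (2.23) and slc26a1 (5.56) were under the limit too. No share is therefore read from these marker counts. None of these markers was at 0 on any array. Their part in the results on the anterior neural and zic genes was not tested. In whole-embryo RNA, fewer cells of a type and less RNA per cell cannot be told apart. The injected target itself, prmt6, read between log2 9.56 and 9.87 in controls and between 11.10 and 11.41 in all 5 MO arrays. A morpholino need not lower its target RNA, so this checks neither the block nor the labels.

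The eye-field gene rx3 showed the largest difference of the 9 genes. It encodes a retinal homeobox protein, and zebrafish that lack it do not form eyes. Its probe set read log2 5.24, 5.40 and 5.52 in the 3 controls and 8.18, 7.74 and 8.21 in the 3 severe arrays. The mild array read 7.75, inside the severe range, and the normal array 5.81, above all controls but far below the rest. The severe mean of 8.04 ± 0.26 (SD, n = 3) stood 6.30-fold above the control mean of 5.39 ± 0.14 (SD, n = 3; log2 2.65, SE 0.25, limma adjusted p = 0.000148). The mild array stood 5.15-fold above control (log2 2.36, SE 0.36, limma adjusted p = 0.00549). The normal array differed from control by 0.42, with a 95% interval from -0.38 to 1.23, and did not pass (limma adjusted p = 0.719).

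Severe embryos also differed from the normal array for rx3, by 2.23 on the log2 scale (SE 0.36, limma adjusted p = 0.0072). Between severe and mild the difference was 0.29, with a 95% interval from -0.52 to 1.10, so these arrays allow a difference of up to 1.10. Control levels of rx3 lay just above the array background of log2 5.10, which makes the fold change less certain than the direction. Its control mean also lay under the brightness limit for testing (log2 5.585), so that rx3 was tested only because the mild and severe arrays were bright.

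Irx7 rose in severe embryos and was as high on the mild array. In zebrafish, irx7 acts together with irx1b in patterning the midbrain and hindbrain. Its probe set read 9.21, 9.04 and 9.79 in controls and 10.57, 10.43 and 10.57 in severe embryos. The mild array read 10.70, above all other arrays, and the normal array read 9.78, within the control range. The rise in severe embryos was 2.26-fold (log2 1.17, SE 0.20, limma adjusted p = 0.0019), from 9.35 ± 0.39 to 10.52 ± 0.08 (SD, n = 3 each).

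On the mild array irx7 was 2.55-fold above control (log2 1.35, SE 0.28, limma adjusted p = 0.0162). Scaling on the hybridisation controls ended that call (log2 0.90, limma adjusted p = 0.12). Severe and normal differed by 0.74 without passing (limma adjusted p = 0.0835). The normal array differed from control by 0.43, with a 95% interval from -0.20 to 1.06 (limma adjusted p = 0.646).

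Of the 2 probe sets of otx1, a homeobox gene of forebrain and midbrain, only probe set 1 passed in severe embryos. Both had a higher mean in severe embryos than in controls, and they were not tested against each other. Probe set 1 read 8.37, 8.29 and 8.40 in controls, and 10.02, 9.82 and 8.79 in severe embryos. Severe 3 thus lay much closer to the controls than the other severe arrays did, although the groups did not overlap. The mild array read 8.48 and the normal array 8.28. The severe mean was 2.28-fold above control (log2 1.19, SE 0.30, limma adjusted p = 0.0127), with a severe SD of 0.66 against a control SD of 0.06 (n = 3 each). Leaving out severe 2 ended the call (log2 1.05, limma adjusted p = 0.0535), and so did scaling on hybridisation controls (log2 0.91, limma adjusted p = 0.139).

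On the mild array otx1 probe set 1 differed from control by 0.13, with a 95% interval from -0.83 to 1.08 (limma adjusted p = 0.871), and it read -0.32 when scaled on hybridisation controls. Severe exceeded mild by 1.06 without passing (limma adjusted p = 0.481). Otx1 probe set 2 was dimmer, at 5.87, 6.40 and 6.00 in controls and 7.10, 6.11 and 6.24 in severe embryos, so its groups overlapped. Its difference of 0.40 did not pass (95% interval from -0.36 to 1.15, limma adjusted p = 0.377). Over the 8 arrays the 2 otx1 probe sets had a Pearson correlation of 0.68.

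**Figure D2:**
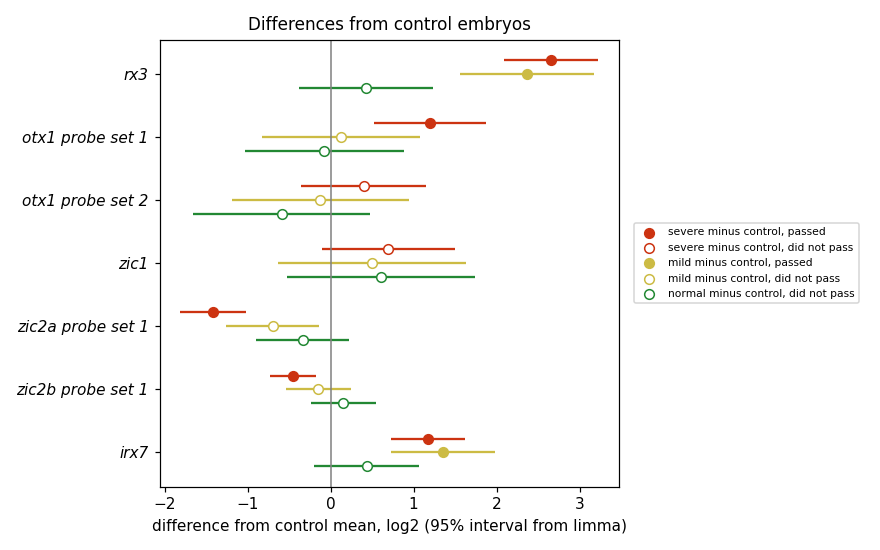
Points give the log2 difference from the control mean for each tested probe set in severe, mild and normal embryos, lines the 95% interval from limma, and filled points an adjusted p under 0.05. Of the filled points 5 are severe and 2 are mild, the latter at 2.36 for rx3 and 1.35 for irx7.

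Among the zic genes, the fall of zic2a was the largest. Zic2a and zic2b are the fish counterparts of ZIC2, mutations of which disturb forebrain development in people. Zic2a probe set 1 read 10.16, 10.19 and 10.51 in controls, 9.95 on the normal array, 9.59 on the mild array, and 8.67, 8.82 and 9.13 in severe embryos. Every severe array was below the mild array, which was below the normal array and all controls. Zic2a fell by 1.41 on the log2 scale in severe embryos, 2.66-fold (SE 0.18, limma adjusted p = 0.000445), from 10.29 ± 0.20 to 8.87 ± 0.24 (SD, n = 3 each).

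The mild array differed by -0.70 for zic2a and did not pass (SE 0.25, limma adjusted p = 0.0998), though it did when scaled on hybridisation controls, with replicates 1 and 2 alone and without severe 3. Severe and normal differed by -1.08 (SE 0.25, limma adjusted p = 0.0201), and severe and mild by -0.72 without passing (limma adjusted p = 0.481). A second zic2a probe set lay under the array background on every array, between 3.06 and 4.88, and gives no information on the gene.

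Zic2b fell as well. Its bright probe set 1 read 12.56, 12.67 and 12.57 in controls and 12.04, 12.07 and 12.33 in severe embryos. The mild array read 12.45, between the groups, and the normal array read 12.75, above every control. The fall was 0.45 log2 units in size, from 12.60 ± 0.06 to 12.15 ± 0.16 (SD, n = 3 each), or 1.37-fold (log2 -0.45, SE 0.12, limma adjusted p = 0.0177). This call was lost with median centring, without the intensity trend, and without control 1, control 2 or severe 2 (highest limma adjusted p = 0.133). The difference between severe and normal was -0.60 (SE 0.17, limma adjusted p = 0.0385), a call lost in 9 of 14 alternatives. The mild array differed from control for zic2b by -0.15, with a 95% interval from -0.54 to 0.24 (limma adjusted p = 0.608), and its sign turned under median centring.

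Zic1, a neural plate gene also called opl, was near background. It read 5.48, 5.65 and 4.47 in controls, with control 3 under background, and 6.09, 5.81 and 5.80 in severe embryos. The mild and normal arrays, at 5.70 and 5.81, were also above all controls. Its control mean, 5.20, lay under the brightness limit too. None of these differences passed. In severe embryos the difference was 0.70, with an SE of 0.35 (limma adjusted p = 0.151), and on the mild and normal arrays 0.50 and 0.60.

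Setting each MO array on a percent scale from the control mean to the severe mean shows how unevenly the 5 called members lay, as a description with no test. For the mild array the position was 89.0% for rx3 and 115% for irx7, 49.2% for zic2a, 33.2% for zic2b and 10.7% for otx1. For the normal array it was 36.8% for irx7, 23.7% for zic2a, 15.99% for rx3, -6.26% for otx1 and -33.4% for zic2b. Severe 3 was at 106% for rx3 and 104% for irx7, but at 81.7% for zic2a, 58.4% for zic2b and 36.8% for otx1. With the values as deposited, the genes for which the mild array lay farthest from severe were thus also those for which severe 3 did. The order rests on 1 mild array and on the scaling. Over the alternatives, the mild difference from control ran from -0.60 to 0.06 for zic2b probe set 1. For otx1 probe set 1 it ran from -0.32 to 0.34.

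**Figure D3:**
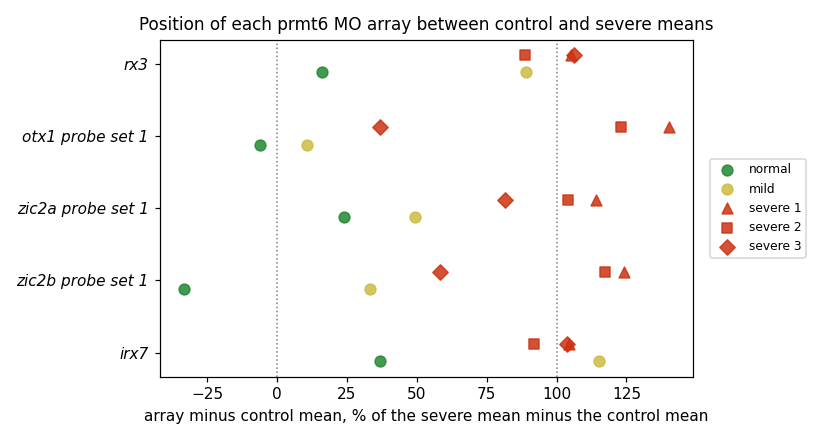
Each row is 1 probe set that passed in severe embryos; each point is 1 MO array, placed by its distance from the control mean as a percent of the severe minus control difference. The mild array runs from 10.7% for otx1 to 115% for irx7, and severe 3 from 36.8% for otx1 to 106% for rx3.

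Direct tests between MO subtypes carried less. Between severe and normal 3 members passed (rx3, zic2a and zic2b), where 21.7% of all tested probe sets passed. With the brightness limit lifted, 2 of the 12 passed there (rx3 and zic2a), against 11.1% of all probe sets. For the mild array, rx3 and irx7 passed against control, both higher, where 13.5% of all tested probe sets passed and 4.69% passed as higher. With the limit lifted, the same 2 of 12 passed, against 7.33%. On the normal array 0 members passed in limma, where 0.043% of all tested probe sets passed. An unadjusted p under 0.05 was reached there by 0 of the 7 tested members, against 9.3% of all tested probe sets. Between severe and mild 0 members and 0% of all tested probe sets passed in limma, while 2 of 7 members and 10.2% of all tested probe sets had an unadjusted p under 0.05. Between mild and normal 0 members and 0.0108% of all tested probe sets passed in limma. There 2 of 7 members and 16.8% of all tested probe sets had an unadjusted p under 0.05. Of the 7, rx3 and zic1 were tested only through the MO arrays, so no share is read from these counts. With the limit lifted, 0 of the 12 passed in limma for normal against control, severe against mild or mild against normal. The shares of all probe sets were 0.0129%, 0% and 0.00645%. An unadjusted p under 0.05 was reached by 0, 2 and 2 of the 12, and its share over all probe sets was not computed with the limit lifted. The comparisons of severe with mild and of mild with normal were added after the data were seen. The mild and normal comparisons with control share the same 3 control arrays with the severe one.

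For otx2b, six3a and six3b the arrays give little. Otx2b, the main otx gene of the anterior neural plate, read 4.87, 5.12 and 5.75 in controls, 5.49 in normal, 5.56 in mild, and 5.43, 5.77 and 4.57 in severe embryos. Its groups overlapped fully, and 6 of 8 arrays were above background. With the brightness limit lifted, the difference in severe embryos was 0.0068, with a 95% interval from -0.998 to 1.01 (limma adjusted p = 0.995). The signal lay near background on all arrays, so this interval sets no limit on a change in the gene.

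The 2 six3 genes encode homeobox proteins of the forebrain and eye field, which in mice repress Wnt genes there. Six3a read 5.13, 5.21 and 5.94 in controls and 5.31, 5.27 and 5.40 in severe embryos, with 5.18 in mild and 5.45 in normal. The severe arrays fell inside the control range, and the difference was -0.10 (95% interval from -0.95 to 0.76, limma adjusted p = 0.893 with no brightness limit). Six3b was under background on 7 of 8 arrays, and severe 3 alone read 5.22. The dim zic2b probe set 2 read between 5.34 and 5.74 in controls, 6.27 in normal, 4.72 in mild, and between 4.08 and 5.34 in severe embryos. Its difference of -0.72 did not pass (limma adjusted p = 0.286). With the brightness limit lifted, 0 of these 5 dim probe sets passed in limma between severe and control, and 0 had an unadjusted p under 0.05. Over all probe sets 23.2% passed at the adjusted threshold, but that share includes the bright ones. The share among dim probe sets alone was not computed, so these 5 are not set against it.

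**Figure D4:**
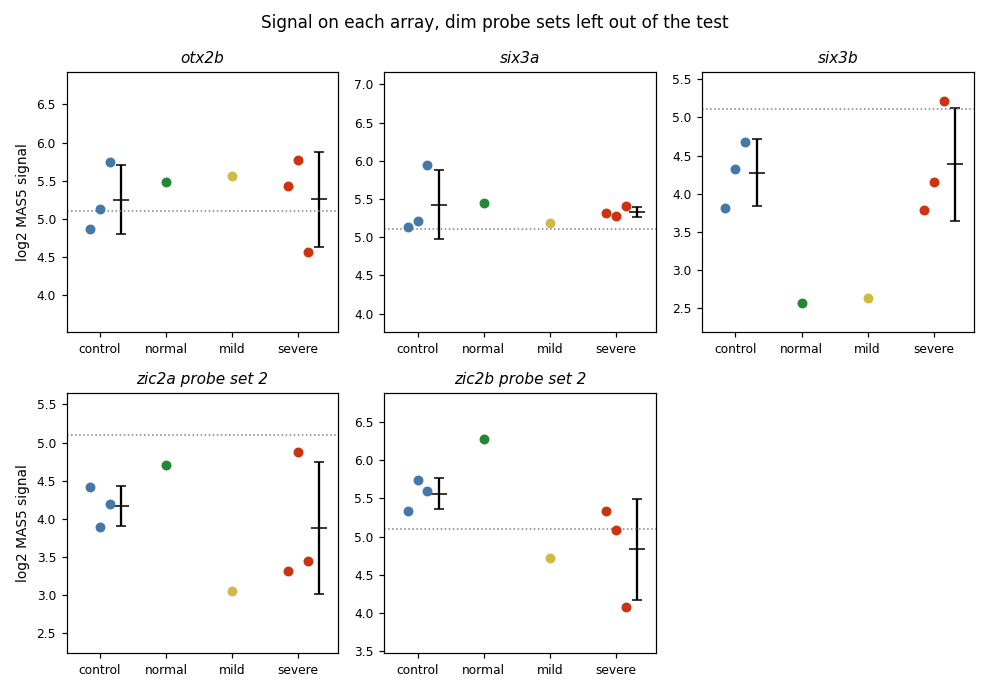
Each panel plots the log2 signal of 1 probe set under the brightness limit on the 8 arrays, with the mean and SD of the 3 control and the 3 severe arrays and a dotted line at array background, log2 5.10. Control and severe points overlap for otx2b, six3a, six3b and zic2a probe set 2, and most points lie near or under the line.

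Other genes of the forebrain and eye field were mostly too dim to be read. Of 22 listed genes 19 were on the array, 10 of these were under background on all 8 arrays and only 2 were tested. Of these 2, 1 rose and 1 fell in severe embryos. Over all tested probe sets 21% rose and 17.6% fell in that comparison, and these shares also go with each list that follows. Foxb1a, a forkhead gene of the neural plate, rose in severe embryos from 8.81 ± 0.27 to 9.76 ± 0.30 (SD, n = 3 each, log2 0.94, limma adjusted p = 0.00683). It read 9.81 on the mild and 9.80 on the normal array, and neither passed against control (log2 0.998 and 0.983). Its severe call was lost under scaling on hybridisation controls (limma adjusted p = 0.0751). Hesx1, a homeobox repressor of the anterior forebrain, differed by -1.31 on the log2 scale (limma adjusted p = 0.0402), with 2 of 3 severe arrays above background. It read 6.94 on the mild and 7.73 on the normal array, the latter above every control, and neither passed (0.40 and 1.19 against control, limma adjusted p = 0.712 and 0.584). The severe call was lost in 7 of 15 alternatives, among them without control 2, control 3, severe 1 or severe 2 (highest limma adjusted p = 0.139). The nearest relatives of rx3 were looked at after its values were seen: rx1 lay between 3.66 and 4.93 and was under background on all arrays, and rx2 was above it on the normal array alone, at 5.48.

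Of the other zic, otx and Iroquois genes, 12 of 17 were on the array and 4 were tested, of which 0 rose and 1 fell in severe embryos. That gene was irx3a, an Iroquois gene, which read 7.15, 7.12 and 7.21 in controls and 4.85, 5.49 and 4.10 in severe embryos (log2 -2.35, SE 0.36, limma adjusted p = 0.00121). Only 1 of 3 severe arrays was above background, so the size is uncertain. It was lower on the mild array too, at 5.22 (log2 -1.94, limma adjusted p = 0.0375), and 7.06 on the normal array. The Iroquois genes irx7 and irx3a thus differed from control in opposite directions in severe and in mild embryos. The values of irx1b (-1.05, limma adjusted p = 0.0958), zic5 (0.74, limma adjusted p = 0.199) and otx2a (-0.37, limma adjusted p = 0.47) did not pass. Both irx1b and zic5 passed without severe 3 (limma adjusted p = 0.0346 and 0.0108) and with replicates 1 and 2 only (0.0166 and 0.0157), and irx1b also when scaled on hybridisation controls (limma adjusted p = 0.0406).

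Of 20 genes of the midbrain, hindbrain and posterior neural tissue 16 were on the array and 4 tested, with 1 higher and 3 lower in severe embryos. Her5, a repressor of neuron formation at the border of midbrain and hindbrain, rose by 1.07 (limma adjusted p = 0.00983), a call that scaling on hybridisation controls ended (limma adjusted p = 0.0832). The caudal homeobox gene cdx4, which posterior tissues express, fell from 9.37 ± 1.19 to 4.93 ± 0.28 (SD, n = 3 each; log2 -4.43, limma adjusted p = 0.000329; 1 of 3 severe arrays above background). It read 5.16 on the mild array, against 8.58, 8.79 and 10.73 in controls. The hindbrain homeobox gene gbx1 read -0.74 against control (limma adjusted p = 0.0355) and the growth factor gene fgf8a -0.95 (limma adjusted p = 0.0245). Both lost their call without control 1, control 2 or severe 1, gbx1 also without control 3 and fgf8a also without severe 2 (limma adjusted p up to 0.116 and 0.0797).

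Among the tested neural inducers and genes of anterior patterning, more fell than rose. Of 21 listed names, with geminin given under both its name and its symbol gmnn, 20 were on the array and 15 tested. The 15 held 2 higher and 8 lower, with a median of -0.53. Over all tested probe sets 21% were higher and 17.6% lower, with a median of 0.11. The severe means of sox2 (3.98) and hhex (4.57) lay under the brightness limit, so both were tested only because other arrays were brighter. In the lists above this held for the severe means of hesx1 (5.23), irx3a (4.81) and cdx4 (4.93) and the control mean of zic5 (5.53). No share is therefore read from these lists. The forkhead gene foxd5 fell (log2 -2.15, limma adjusted p = 8.79e-05), as did chrd, a secreted BMP antagonist of the organizer (-1.97, limma adjusted p = 0.000116), and sox3 (-1.03, limma adjusted p = 0.000245). Other sox3 probe sets read -1.91, which passed, and -0.79, which did not (limma adjusted p = 0.0635). Sox2, a factor of neural progenitors, read -5.26 (limma adjusted p = 0.000486), and on the severe side 1 of 3 arrays exceeded background. A dim second sox2 probe set read -4.94 and passed with the brightness limit lifted (limma adjusted p = 0.000573). Another, also dim, read 0.15 and did not pass (limma adjusted p = 0.871). Sox19b, its maternally supplied relative, rose by 1.63 (limma adjusted p = 0.000456), and by 1.45 on its second probe set (limma adjusted p = 0.00378). The other gene that rose was cyp26a1, whose enzyme breaks down retinoic acid (0.99, limma adjusted p = 0.00766), chosen here after its value was seen. The lists hold genes known to have moved in these arrays, so they are a description and not independent evidence.

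**Figure D5:**
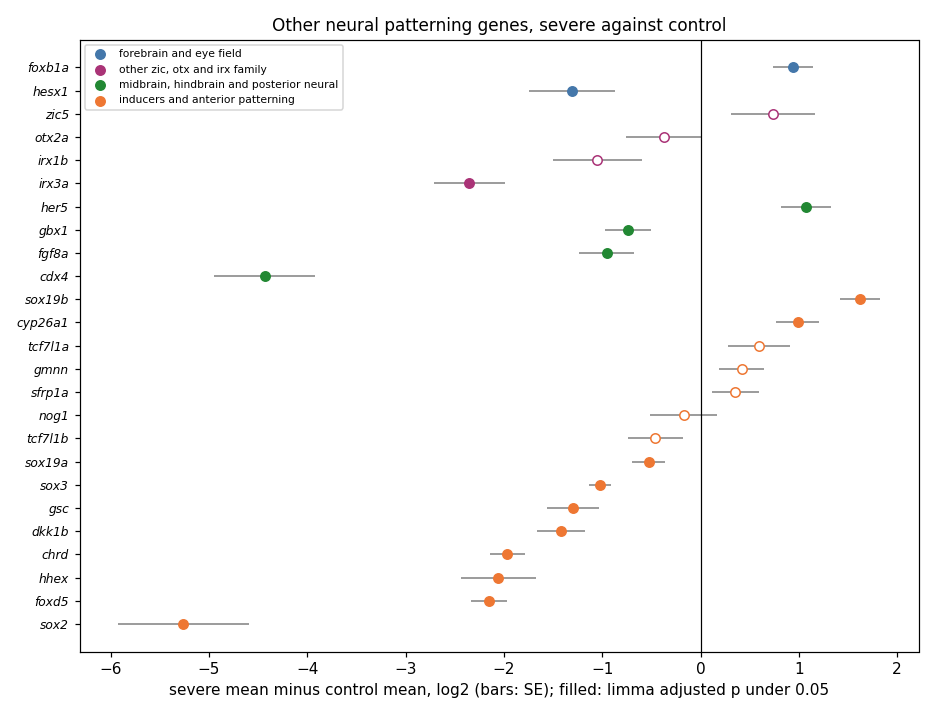
Points give the severe minus control difference on the log2 scale for each tested gene of the 4 lists, with SE bars; filled points passed at a limma adjusted p of 0.05, and colours mark the list. The differences run from -5.26 for sox2 to 1.63 for sox19b, and each list with more than 1 call holds both rises and falls.

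The patterns of the largest rise and the largest fall were shared by many probe sets. Measured by Pearson correlation over the 8 arrays, which share groups and injections, the 5 named genes most like rx3 were zgc:92591, znf706, tlk2, gosr1 and mdh2, at 0.996, 0.993, 0.993, 0.992 and 0.991. The 5 most like zic2a were glyr1, cbsb, hnrnpd and 2 genes with clone names, between 0.988 and 0.994. Above 0.95 there were 176 other probe sets for rx3 and 278 for zic2a among the tested ones.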

How the data were processed

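The deposited table holds log2 values for 8 Affymetrix arrays, 1 per probe set. Signals were made with MAS5, per the submitters' processing notes. The deposited values show that the authors had scaled each array to a trimmed mean linear signal of 500.1 (2% trimmed at each end), with a floor at log2 0. Array medians lay between 6.47 and 6.80, and the number of arrays limits the precision.

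Values were used as deposited. The plan's log2(value + 16) for linear values was not needed. AFFX control probe sets (115) and probe sets with a mean under the 40th percentile (log2 5.585) were left out. The 4 group means were fitted with limma 3.58.1 (eBayes with trend, 4 residual degrees of freedom) in R 4.3.3, adjusted by Benjamini-Hochberg over 9301 probe sets. Background, log2 5.10, is the 95th percentile over the 17 Tag probe sets, which have no target in the sample (a choice made after the values were seen). Gene names came from the platform annotation: 10795 probe sets had 1 symbol, 135 several and 4572 none, and 10711 symbols were updated through RefSeq's gene table. A listed gene was represented by its brightest tested probe set.

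All member probe sets were named, with up to 5 genes of smallest p per list, and exceptions are marked. Members and lists were chosen with earlier results of these data known. Simulated severe changes of 1.5-, 2-, 4- and 8-fold (50 of each, 9301 probe sets) were recovered in 2%, 40%, 62% and 88%, and 9 of 105 calls were wrong. Far fewer probe sets were changed there than the 38.6% that passed in the real severe comparison. Adjusted p-values depend on that share, so these rates are not the recovery or error rates of the real comparison. Alternatives covered scaling, pseudocount, brightness limit, variance trend, arrays fitted, replicate block and each replicate left out. Figures used matplotlib 3.10.9.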

Additional observations from a re-analysis of the deposited data

Results flagged for a closer look

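Severe and normal embryos had both received the MO and had been sorted by shape. For 3 members these sorted subtypes differed from each other, by the direct test of that difference. It was 2.23 on the log2 scale for rx3 (limma adjusted p = 0.0072), -1.08 for zic2a probe set 1 (limma adjusted p = 0.0201) and -0.60 for zic2b probe set 1 (limma adjusted p = 0.0385). The normal side of each rests on 1 array. The rx3 difference passed in 13 of 13 alternatives. The zic2a difference passed in 13 of 14, missing when arrays were scaled on hybridisation controls, and the zic2b difference in 5 of 14.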

How the results depend on the processing

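In severe embryos the rx3, irx7 and zic2a calls held in each of 15, 16 and 16 alternatives, with differences from 2.00 to 2.81, 0.89 to 1.40 and -1.70 to -1.30. No called member changed sign. Members called in severe embryos numbered 5, and between 3 (without severe 2) and 5 with 1 array left out. On the mild array 1 of 4 tested members passed with the brightness limit at the 60th percentile, where rx3 was not tested. On the normal array 1 member, irx7, passed with replicates 1 and 2 only. Between severe and normal 1 passed when scaled on hybridisation controls and 5 with replicates 1 and 2 only.

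Of all probe sets, scaling on hybridisation controls passed 2377 in severe, 0 in normal and 590 between severe and normal. On the mild array it gave 30 higher and 967 lower, against 436 and 817 as deposited and 718 and 575 with median centring. Between severe and normal it gave 121 higher and 469 lower, against 1052 and 965. Replicates 1 and 2 only gave 3037 in mild, 1094 in normal and 4797 between severe and normal. For the normal array, with 4 as deposited, the count was 2 with quantile normalization, 2 with no brightness limit and 1 with no intensity trend. With 1 array left out, counts lay between 615 (without control 2) and 1893 (without severe 3) in mild, 670 without control 1, between 0 and 14 in normal, and between 1071 (without severe 1) and 3322 (without severe 3) between severe and normal, with 1332 without control 1, 1326 without control 2 and 1117 without severe 2. The cause was not tested.

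With the replicate number as a block, 4413 probe sets and 5 members passed in severe embryos. There irx1b, which missed the threshold in the main fit, passed as well (-1.05, limma adjusted p = 0.00774). Deviations of same-numbered control and severe arrays correlated at 0.34, -0.07 and 0.34, and those of differently numbered arrays between -0.45 and 0.38. Control 3 correlated at 0.34 with severe 3 and at -0.45 with severe 1. Controls 1 and 2 correlated at 0.34 and 0.38 with severe 1 and at -0.28 and -0.26 with severe 3. The main fit did not take the numbers as pairs, and whether arrays of the same number share a source was not tested. A dim probe set has a wide interval, which limits otx2b, six3a, six3b and zic1 most.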

Other observations

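Retinoic acid synthesis was not covered above because its gene was too dim on average to be tested. The gene aldh1a2, whose enzyme makes retinoic acid, read log2 7.31, 7.66 and 8.98 in controls and 7.81 on the normal array. It was under the array background on the mild array (2.27) and on all 3 severe arrays (4.04, 1.79 and 4.37). The gene was singled out after its values were seen. The brightness limit uses the mean of all arrays, so it can leave out a gene that is bright in controls only.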
